A study of Oryctolagus cuniculus with 6 samples.

Results

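Inflammatory cytokines and chemokines are secreted proteins that carry signals between vessel wall cells and leukocytes. Here 8 of their genes are described: CXCL8, CCL2, IL1A, IL1B, TNF, IL6, LIF and IL18. A probe was taken as one of theirs when its gene name in the array files was the member's symbol or its older symbol (IL8 for CXCL8), or when its description gave the full name. All 8 of 8 genes had a probe, and together they held 36 of the 43603 probes on the array. No probe bore the older CCL2 name MCP-1. In rabbit annotation that name also belongs to macrophage cationic peptides, and the 6 probes described as such peptides were not taken as CCL2.

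RNA was measured on 6 one-colour arrays, 3 per group, from basilar artery smooth muscle cells of female New Zealand White rabbits. In the ligated group both common carotid arteries were tied, which sends more flow through the basilar artery. In the sham group the same vessels were exposed without being tied. All arteries were taken on day 5. Cells of both groups passed through the same isolation, 45 min of perfusion with 0.4 mg/ml elastase and 1 mg/ml collagenase and then trituration, so no undigested tissue stands beside them. The labels give 3 rabbits per group and do not say whether an artery was pooled. The comparison asks how transcripts of the isolated cells differ when flow through the vessel is raised.

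IL1A, IL1B and TNF are early signals of inflammation that activate NF-kB in the cells they reach. CXCL8 and CCL2 are chemokines among the targets of that pathway, and they draw in neutrophils and monocytes. IL6 and LIF signal through the shared receptor chain gp130, and IL18 is made as a precursor that caspase-1 cuts.

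Probe sequences of members that passed the test are shown, as pairs for CXCL8, IL1A and IL18, because overlapping or adjoining probes read the same messenger RNA at different bases. Capitals mark the run of bases that both probes of a pair share (9 bases for CXCL8, 30 for IL1A and 20 for IL18). The LIF probe has no partner and is in lower case throughout.
CXCL8 probe A_04_P004968: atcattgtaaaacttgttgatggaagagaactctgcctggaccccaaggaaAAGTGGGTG
CXCL8 probe A_04_P004966: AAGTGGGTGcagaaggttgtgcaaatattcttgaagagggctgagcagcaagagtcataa
IL1A probe A_04_P079444: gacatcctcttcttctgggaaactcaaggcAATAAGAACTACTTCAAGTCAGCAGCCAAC
IL1A probe A_04_P079443: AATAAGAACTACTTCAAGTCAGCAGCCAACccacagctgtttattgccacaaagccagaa
IL18 probe A_04_P001103: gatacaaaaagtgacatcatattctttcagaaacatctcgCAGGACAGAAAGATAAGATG
IL18 probe A_04_P001102: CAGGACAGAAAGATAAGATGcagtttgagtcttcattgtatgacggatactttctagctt
LIF probe A_04_P054302: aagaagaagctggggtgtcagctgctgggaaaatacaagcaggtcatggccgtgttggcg

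All coordinates are those of the array files, on oryCun2. The CXCL8 pair lies at chr15:76370623-76370951 and chr15:76370124-76370631, minus strand. Each of these probes is 60 bases long, so its match to the genome skips 269 or 448 bases. The IL1A pair lies at chr2:97561619-97561678 and chr2:97561589-97561648, minus strand. The IL18 pair lies at chr1:104234177-104234236 and chr1:104234217-104234276, plus strand. The files give no position for the LIF probe, which was matched by its description alone. Exon and UTR are not stated, since no annotation of that build was used here.

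Values are log2 signals relative to the 75th percentile of the array. They order the arrays for 1 probe and do not rank genes, because probes differ in how strongly they bind. Changes are ligated minus sham with their standard error (SE), and each adjusted p comes from limma with Benjamini-Hochberg adjustment over 27410 tested probes, with a threshold of 0.05. The brightest probe stands for a gene. In simulated data with the spread of these arrays, the same fit recovered 2 of 100 changes of 1 log2 unit. Of 100 changes of 2 log2 units it recovered 47. These were the only changes among 27381 simulated probes, whereas 2290 probes passed here, so the adjustment was stricter in the simulation. Simulated arrays were also drawn independently of each other. The rates therefore do not measure the power of the test used here. A gene or list that did not pass may still differ between the groups.

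The arrays differed in ways that the groups do not explain. The share of probes read well above background ran between 58.7% and 63.7%, and no spot was saturated. The ligated arrays shared slide 2 and the sham arrays slide 1, which means that effects of ligation and of the slide cannot be told apart. Sham 2 and sham 3 were very close, with an SD of their log2 difference of 0.382 over 27381 probes. Sham 1 stood apart from both, at 1.277 from sham 2, and was nearer to ligated 2, at 0.918. Ligated 3 was nearest to ligated 2, at 0.937, but nearer to sham 2, at 0.958, than to ligated 1, at 1.023. Whether preparations were shared or labels exchanged was not tested, and every ligated minus sham value rests on the labels as given.

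The cell preparation held smooth muscle transcripts on every array, and also transcripts of other cells. ACTA2, smooth muscle actin, read 7.23, 8.08 and 6.18 on ligated arrays 1, 2 and 3, against 8.87, 7.73 and 7.73 on sham arrays 1, 2 and 3. Of 12 tested smooth muscle markers, 0 were higher and 2 lower past the threshold (SMTN and DES), with a median change of -1.06. SMTN, smoothelin, changed by -1.77 ± 0.22 (SE, adjusted p = 0.00794) and DES, desmin, by -1.11 ± 0.24 (adjusted p = 0.0399). Of the 2 tested DES probes 1 passed, the brightest. Its call ended in 5 of the 6 fits that leave out 1 array, with adjusted p up to 0.156, and held without ligated 2. Of 8 tested fibroblast and meningeal markers, 4 were higher (LUM, COL1A1, COL1A2 and MFAP5) and 0 lower, with a median of 1.85. The changes of DPT (1.97), SLC22A6 (1.22), DCN (0.36) and PTGDS (-0.85) did not pass, so the markers of this list did not move together. LUM and COL1A1 kept their calls in all 6 fits that leave out 1 array, COL1A2 in 5 (adjusted p = 0.0566 without sham 3) and MFAP5 in 1 (adjusted p up to 0.158). Since MFAP5 was well above background on 3 ligated and 2 sham arrays, the sham arrays alone would not have brought it into the test. Over all 7347 tested genes, 6.26% were higher and 2.71% lower past the threshold, with a median of 0.00. In such a mixture fewer cells of a type and less RNA per cell cannot be told apart. Which cells the transcripts of the fibroblast and meningeal list came from, and their part in the cytokine results, was not tested.

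Every one of the 8 cytokine genes read higher on all 3 ligated arrays than on all 3 sham arrays, and 6 passed the test: CXCL8, LIF, IL18, IL1A, IL1B and IL6. TNF and CCL2 did not pass. The 6 of 8 stand beside 6.26% of all tested genes that were higher past the threshold. The 8 of 8 without overlap stand beside 18% of tested genes that were higher without overlap. The median change of the 8 genes was 2.04, and 4.91% of tested genes changed upward by at least as much as the least changed of the 8.

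All 36 probes of these genes were well above background on all 6 arrays, so each was measured in both groups and none entered the test through 1 group alone. By probe, 27 of 36 were higher past the threshold and 0 lower, against 5.71% of tested probes that were higher and 2.65% that were lower. All 36 of 36 separated the groups, against 17.6% of tested probes that were higher without overlap. Probes of a gene read the same messenger RNA and are not replicates of the condition.

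**Figure D1:**
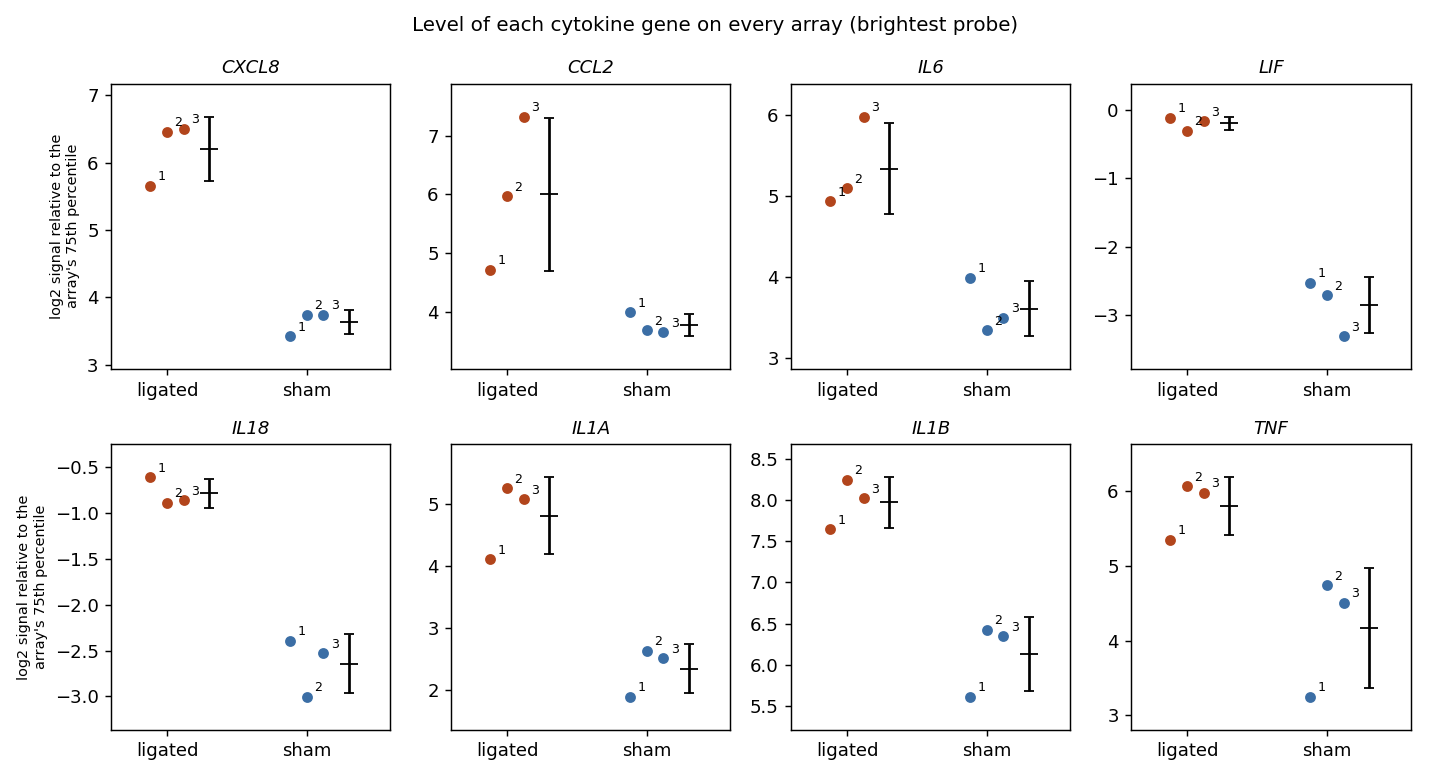
Log2 signal relative to the array's 75th percentile (vertical axes, 1 scale per panel) for the brightest probe of each of 8 cytokine genes on ligated arrays (left of each panel, orange) and sham arrays (right, blue). Numbers are the array numbers and black bars the mean ± SD of 3 arrays. In each panel the lowest ligated array sits above the highest sham array, by 2.23 for LIF and by 0.61 for TNF, the widest and the narrowest gaps among the 8 genes.

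CXCL8, the neutrophil-attracting chemokine, was 5.95-fold higher in ligated arteries. Its brightest probe, at chr15:76369048-76369107, read 5.66, 6.46 and 6.51 on ligated arrays 1, 2 and 3, against 3.42, 3.74 and 3.74 on sham arrays 1, 2 and 3. The lowest ligated array lay 1.92 above the highest sham array, and sham 2 and sham 3 differed by less than 0.01. The means were 6.21 ± 0.48 in ligated and 3.64 ± 0.18 in sham (SD, n = 3 each), a change of 2.57 ± 0.28 (SE, adjusted p = 0.00583).

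The 7 CXCL8 probes fall into 4 stretches of the transcript that share fewer than 20 bases, and all 7 passed, with changes from 2.32 to 2.72. The shown probe A_04_P004966 read 5.93, 5.85 and 6.59 on ligated arrays 1, 2 and 3, against 2.72, 3.77 and 3.82 on sham arrays 1, 2 and 3. Here sham 1 was the lowest by a wider margin than on the brightest probe, and ligated 1 was no longer the lowest ligated array. The order of arrays within a group thus differed between CXCL8 probes, while the separation of the groups did not. The change kept its call in all 6 fits that leave out 1 array.

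CXCR1 and CXCR2, the receptors that bind CXCL8, each had 1 probe. CXCR1 read 0.55, -0.04 and 0.50 on ligated arrays, against -0.20, 0.24 and -0.16 on sham arrays, with overlap between the groups and a change of 0.37 ± 0.24 (SE, adjusted p = 0.360). CXCR2 read -1.83, -2.08 and -1.65 on ligated arrays, against -2.52, -1.60 and -2.34 on sham arrays, also with overlap and a change of 0.30 ± 0.29 (adjusted p = 0.528).

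CCL2, which draws in monocytes, had a mean 4.69-fold higher in ligated arteries and did not pass the test. The brightest CCL2 probe, at chr19:23721850-23721909, read 4.71, 5.96 and 7.32 on ligated arrays 1, 2 and 3, against 3.98, 3.68 and 3.64 on sham arrays 1, 2 and 3. The groups did not overlap, but the ligated arrays spread over 2.61, while the sham arrays spread over 0.34. The change was 2.23 ± 0.61 (SE, adjusted p = 0.0744). All 4 probes, which overlap in 1 stretch, gave changes from 2.23 to 2.45 and adjusted p from 0.0598 to 0.0769.

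The CCL2 change passed without ligated 1, at 2.87 with adjusted p = 0.0344, and was 1.57 without ligated 3, with adjusted p = 0.0715. Without both sham 1 and ligated 3, a fit chosen after seeing the data, it was 1.67, with adjusted p = 0.0449. The summed signal of 9 tested monocyte and macrophage markers ran in the same order over the ligated arrays, at 10.5, 15.7 and 37.9 times the array's 75th percentile, and was 9.98, 24.1 and 20.9 on the sham arrays. Of these 9 markers 0 passed in either direction, with a median change of 0.17, and their part in the CCL2 result was not tested. CD14, the endotoxin co-receptor of monocytes, changed by 0.01 ± 0.53 (SE, adjusted p = 0.992), and ITGAM, an integrin of myeloid cells, by 1.05 ± 0.25 (adjusted p = 0.0546). CCR2, the CCL2 receptor of monocytes, was not well above background on any of the 6 arrays and was not tested.

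**Figure D2:**
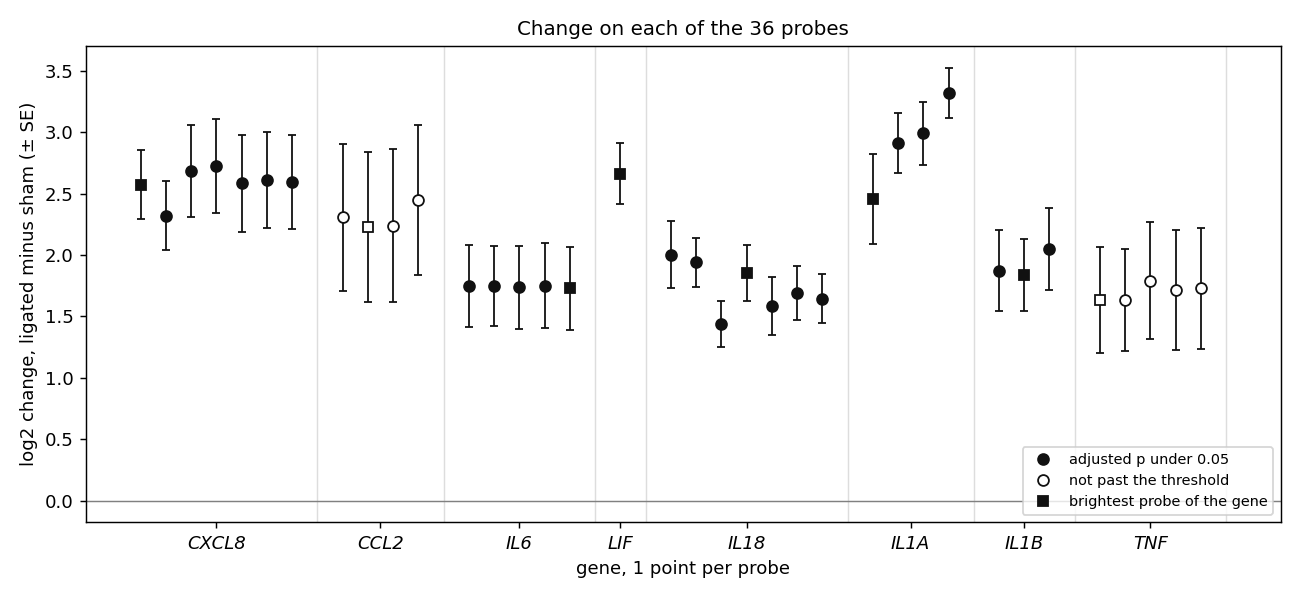
Log2 change (vertical axis, ligated minus sham, ± SE of the limma fit over 3 arrays each) on each of the 36 probes, grouped by gene along the horizontal axis. Filled symbols passed an adjusted p of 0.05, open ones did not, and squares mark the brightest probe of a gene. The 7 CXCL8 probes lie between 2.32 and 2.72, while the open symbols are the 4 CCL2 and 5 TNF probes.

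IL1A, the cell-associated form of interleukin 1, was 5.49-fold higher in ligated arteries. Its brightest probe, at chr2:97560506-97560565, read 4.11, 5.25 and 5.07 on ligated arrays 1, 2 and 3, against 1.90, 2.64 and 2.52 on sham arrays 1, 2 and 3. Array 1 was the lowest of its group on both sides, and the groups were 1.47 apart. The change was 2.46 ± 0.37 (SE, adjusted p = 0.0140), and it did not pass without sham 3 (adjusted p = 0.0580) or without ligated 2 (adjusted p = 0.0575).

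The other IL1A probes gave larger changes with smaller errors, and all 4 probes passed. The shown probe A_04_P079444 read 1.36, 1.33 and 1.83 on ligated arrays 1, 2 and 3, against -1.88, -1.80 and -1.75 on sham arrays 1, 2 and 3. Its sham arrays lay within a narrow band that the ligated arrays did not approach, and its change was 3.32 ± 0.21 (SE, adjusted p = 0.00155). Its partner A_04_P079443, which shares 30 bases with it, changed by 2.99 ± 0.26 (adjusted p = 0.00332). The size of the IL1A change thus ran from 2.46 to 3.32 with the probe.

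IL1B, the secreted form of interleukin 1, was 3.58-fold higher in ligated arteries. Its brightest probe, at chr2:97614419-97614478, read 7.64, 8.25 and 8.02 on ligated arrays 1, 2 and 3, against 5.61, 6.43 and 6.35 on sham arrays 1, 2 and 3. Array 1 was again the lowest of each group, and the groups were 1.22 apart. The change was 1.84 ± 0.29 (SE, adjusted p = 0.0168), and all 3 probes, in 2 stretches, passed with changes from 1.84 to 2.05. The call ended without sham 2 (adjusted p = 0.0516), without sham 3 (adjusted p = 0.0619) and without ligated 2 (adjusted p = 0.0667).

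For IL1R1, the signalling receptor of both forms, 1 probe read -0.41, -1.14 and -1.05 on ligated arrays, against -2.00, -1.41 and -1.48 on sham arrays. The groups did not overlap, and the change of 0.76 ± 0.28 (SE) did not pass (adjusted p = 0.143). IL1RN, the receptor antagonist, read 2.36, 3.98 and 5.72 on ligated arrays, against 1.39, 3.21 and 3.35 on sham arrays. The array files call these IL1RN probes IL1R1, and their accession belongs to IL1RN in the current annotation. The IL1RN arrays overlapped between groups, with ligated 3 the highest of all 6, and the change was 1.37 ± 0.91 (adjusted p = 0.371).

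IL1R2, the decoy receptor, read 2.13, 1.03 and 3.18 on ligated arrays, against 1.69, 0.31 and 0.36 on sham arrays, with overlap and a change of 1.32 ± 0.62 (SE, adjusted p = 0.223). Of the 5 tested genes for decoys, antagonists and processing, 0 passed in either direction, with a median change of 0.23. They include CASP1, the protease that matures IL1B and IL18, which changed by -0.22 ± 0.54 (adjusted p = 0.817).

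TNF, tumour necrosis factor, had a mean 3.1-fold higher in ligated arteries and did not pass the test. The brightest TNF probe, at chr12:20401949-20402008, read 5.36, 6.07 and 5.98 on ligated arrays 1, 2 and 3, against 3.25, 4.75 and 4.51 on sham arrays 1, 2 and 3. All ligated arrays were higher, and sham 1 lay far under the other sham arrays, and the 3 sham arrays spread over 1.5. The change was 1.63 ± 0.43 (SE, adjusted p = 0.0685), and the 5 probes gave changes from 1.63 to 1.79 with adjusted p from 0.0622 to 0.0801.

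Without sham 1 the TNF change was 1.17, with adjusted p = 0.0637. PTPRC, the leukocyte surface marker CD45, was also lowest on sham 1, at -4.24, against -1.11 and -0.84 on sham arrays 2 and 3, and its groups overlapped. PTPRC was chosen after its values were seen, but most tested leukocyte markers were also lowest on sham 1 among the sham arrays. Among monocyte and macrophage markers the exception was MRC1, at 0.38 on sham 1, against -0.67 and -0.65 on sham arrays 2 and 3. Among lymphocyte markers the exception was MS4A1. Of the neutrophil markers, S100A8, S100A9 and CAMP were highest on sham 1, S100A9 at 0.83 against -0.86 and -1.09. The other tested neutrophil markers were lowest there. Summed signals on sham arrays 1, 2 and 3 were 9.98, 24.1 and 20.9 for monocyte and macrophage markers. They were 0.94, 10.1 and 10.2 for lymphocyte markers, and 4.22, 1.95 and 1.75 for neutrophil markers. The part of leukocyte transcripts in the TNF result was not tested. TNFRSF1A, the main TNF receptor of tissue cells, read 2.03, 0.83 and 0.54 on ligated arrays, against 0.13, -0.41 and -0.45 on sham arrays. Its groups did not overlap, and its change of 1.38 ± 0.42 (SE) did not pass (adjusted p = 0.0926).

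IL6, which drives the acute phase response, was 3.32-fold higher in ligated arteries. On chr10:7776269-7776328, its brightest probe read 4.94, 5.10 and 5.98 on ligated arrays 1, 2 and 3, against 3.99, 3.34 and 3.50 on sham arrays 1, 2 and 3. Ligated 3 was the highest array and sham 1 the highest sham array, and the groups were 0.95 apart. The change was 1.73 ± 0.34 (SE, adjusted p = 0.0298).

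All 5 IL6 probes passed with changes from 1.73 to 1.75, but neighbours among them are shifted by a single base and read 1 stretch. The IL6 call held in 2 of the 6 fits that leave out 1 array. It ended without sham 2 (adjusted p = 0.116), sham 3 (adjusted p = 0.118), ligated 1 (adjusted p = 0.0536) and ligated 2 (adjusted p = 0.0802). IL6R, the receptor chain that binds IL6, read -2.11, -2.62 and -2.02 on ligated arrays, against -2.55, -1.80 and -2.22 on sham arrays, with overlap and a change of -0.06 ± 0.27 (SE, adjusted p = 0.903).

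LIF, leukaemia inhibitory factor, was 6.33-fold higher in ligated arteries, on its 1 probe. It read -0.11, -0.30 and -0.16 on ligated arrays 1, 2 and 3, against -2.53, -2.71 and -3.31 on sham arrays 1, 2 and 3. The ligated arrays lay within 0.19 of each other, and the gap of 2.23 to the nearest sham array was the widest of the 8 genes. The means were -0.19 ± 0.10 in ligated and -2.85 ± 0.41 in sham (SD, n = 3 each), a change of 2.66 ± 0.25 (SE, adjusted p = 0.00383). The call held in all 6 fits that leave out 1 array. LIF was dim on the sham arrays, where the lowest signals counted as well above background were -4.04, -4.11 and -4.58. Another background correction, normexp, was run with an offset of 50 added to every signal. With normexp the LIF change was 0.90 (adjusted p = 0.832), and 1.34 (past the threshold) when spots of very high local background were first left out. The part of the offset in these smaller changes was not tested.

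IL6ST, which encodes gp130, was 1.82-fold higher in ligated arteries. It read 3.14, 2.78 and 2.84 on ligated arrays, against 2.10, 2.10 and 1.97 on sham arrays. The groups did not overlap, and the change was 0.87 ± 0.19 (SE, adjusted p = 0.0399), but the call ended in each of the 6 fits that leave out 1 array, with adjusted p up to 0.166. LIFR, the receptor chain that binds LIF, cleared background on just 1 of 3 sham arrays and changed by 1.49 ± 0.61 (adjusted p = 0.178). Of 7 tested receptor genes of the 8 cytokines, 1 passed as higher and 0 as lower, with a median change of 0.76.

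IL18, an interleukin 1 family cytokine that stimulates interferon gamma production, was 3.61-fold higher in ligated arteries. Its brightest probe, at chr1:104234237-104234296, read -0.61, -0.89 and -0.86 on ligated arrays 1, 2 and 3, against -2.39, -3.00 and -2.53 on sham arrays 1, 2 and 3. Ligated 1 was the highest array and the groups were 1.5 apart. The change was 1.85 ± 0.23 (SE, adjusted p = 0.00800), and the call held in all 6 fits that leave out 1 array. Like LIF, IL18 was dim on the sham arrays, where the lowest signals counted as well above background were -4.04, -4.11 and -4.58. With normexp the IL18 change was 0.78 (adjusted p = 0.832), and 1.00 (past the threshold) without spots of very high local background.

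The 7 IL18 probes hold 5 different sequences in 1 stretch, and all 7 passed with changes from 1.44 to 2.0. The shown sequences are each on the array under 2 probe names, which gives a measure of technical error. Copies of the first, A_04_P001103 and A_04_P037636, differed by 0.05 to 0.32 on an array and gave changes of 1.44 and 1.64. Copies of the second, A_04_P001102 and A_04_P037634, differed by 0.10 to 1.03 on an array and gave changes of 1.94 and 1.59. Identical probes thus gave changes that differed by 0.20 and 0.36, less than the change itself. IL18R1, the receptor chain that binds IL18, was not well above background on any of the 6 arrays and was not tested.

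**Figure D3:**
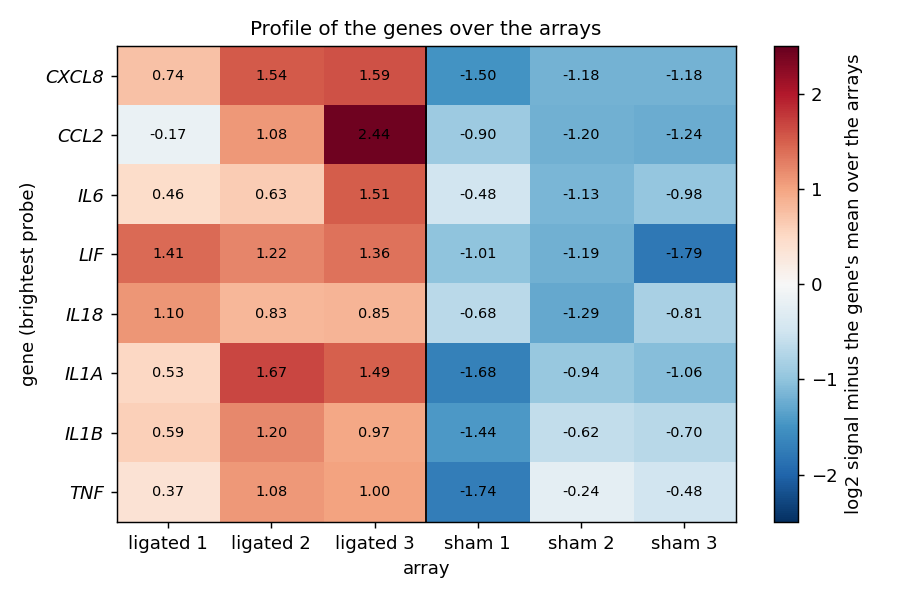
Log2 signal of the brightest probe of each gene minus that gene's mean over the 6 arrays (colour and printed values), with genes in rows, ligated arrays left of the black line and sham arrays right of it. TNF, IL1A, IL1B and CXCL8 were lowest on sham 1, at -1.74 for TNF, while CCL2, IL6, LIF and IL18 had their highest sham value there, at -0.48 for IL6.

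Within a group the 8 genes did not share 1 order of arrays. Ligated 1 was the lowest ligated array for 6 of 8 genes, and LIF and IL18 instead had their highest value there. Sham 1 was the lowest sham array for 4 of 8 (CXCL8, IL1A, IL1B and TNF) and the highest for the other 4 (CCL2, IL6, LIF and IL18). These orders describe single arrays and were not tested.

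The genes with the profiles most like CXCL8 and IL18 were found by the root mean square difference over 6 arrays after each profile was centred, among 7346 tested genes. Nearest to CXCL8 were SCUBE2 (0.15), IL1A (0.17), MDK (0.18), AURKB (0.20) and KIF4A (0.21). Nearest to IL18 was GRO-A (0.13), a rabbit CXC chemokine whose human counterpart attracts neutrophils, followed by FANCI, COL6A1, GRM4 and WNT2B. GRO-A read 8.16, 7.91 and 7.91 on ligated arrays, against 6.44, 5.82 and 5.94 on sham arrays. All ligated arrays were higher, its change was 1.93 ± 0.23 (SE, adjusted p = 0.00716), all 5 of its probes passed, and the call held in all 6 fits that leave out 1 array. Since GRO-A was picked for its likeness to IL18, whose groups are separate, its own separation and call follow from that choice and are a description.

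Other cytokine and chemokine genes were read from lists of those families. Of 6 tested chemokines in a list that does not hold GRO-A, 0 passed, with a median change of 0.59. The list names CXCL1, CXCL2 and CXCL3, but no probe bore these symbols, and GRO-A was not matched to any of them. GRO-A, which passed, is thus missing from this count. CCL4, a chemokine for monocytes and T cells, came nearest, with 8.04, 8.71 and 9.35 on ligated arrays, against 5.92, 7.36 and 7.28 on sham arrays. Its groups did not overlap, and its change of 1.85 ± 0.49 (SE) had an adjusted p of 0.0696.

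Of 15 other tested cytokines 3 were higher and 0 lower, with a median change of -0.33, and 1 of the 3, CLCF1, entered the test through the ligated arrays alone. IL10, a cytokine that restrains inflammation, read -2.16, -1.09 and -1.39 on ligated arrays, against -2.63, -4.00 and -3.72 on sham arrays, and changed by 1.91 ± 0.44 (SE, adjusted p = 0.0481). IL23A, a subunit of interleukin 23, changed by 3.31 ± 0.74 (adjusted p = 0.0447). It rose above background on just 1 of 3 sham arrays, so the sham arrays alone would not have brought it into the test. CLCF1, which like LIF signals through gp130, was not well above background in sham and was at least 3.16-fold higher in ligated arteries (adjusted p = 0.0348). That bound replaces each sham value by the dimmest signal that still counted as well above background there, and the call is no independent sign of a difference, since a gene read on ligated arrays alone had to differ. IL10 and IL23A each kept their call in 1 of the 6 fits that leave out 1 array, with adjusted p up to 0.165 for IL10 and 0.134 for IL23A. Their changes in these fits ran from 1.63 to 2.31 for IL10 and from 2.51 to 3.90 for IL23A. CLCF1 kept its call in 2 of them, with adjusted p up to 0.119.

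The steps between receptor and target gene were read next. Of 19 tested genes of NF-kB, MyD88 and JAK-STAT signalling 0 passed, with a median change of -0.10. Of 7 feedback inhibitors 0 passed, with a median of -0.22, and NFKBIA, the inhibitor that NF-kB itself induces, changed by 0.69 ± 0.26 (SE, adjusted p = 0.146). Of 10 tested genes that these cytokines induce, for adhesion and the acute response, 3 were higher and 0 lower (TNFAIP6, MMP9 and HP), with a median of 1.31.

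TNFAIP6, an induced protein that binds hyaluronan, changed by 5.53 ± 0.29 (SE, adjusted p = 0.00136), a larger change than any of the 8 cytokines. MMP9, a gelatinase, changed by 3.22 ± 0.52 (adjusted p = 0.0174) and HP, haptoglobin, by 1.83 ± 0.42 (adjusted p = 0.0484). Since MMP9 was well above background on 3 ligated and 2 sham arrays, the sham arrays alone would not have brought it into the test. TNFAIP6 kept its call in all 6 fits that leave out 1 array, MMP9 in 3 with adjusted p up to 0.0731, and HP in 1 with adjusted p up to 0.119. VCAM1, an adhesion molecule for leukocytes, changed by 0.76 ± 0.33 and did not pass (adjusted p = 0.190).

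Dissociation of tissue can itself induce early response genes, so a list of these was read beside the cytokines. Of 12 tested, 2 were higher (IER3 and DUSP1) and 0 lower, with a median change of 0.10. FOS, the best known of them, read 4.43, 3.93 and 3.74 on ligated arrays, against 5.37, 4.76 and 4.80 on sham arrays, and so was lower on every ligated array (change -0.95 ± 0.27, SE, adjusted p = 0.0841). DUSP1, a phosphatase, read 5.43, 3.44 and 2.61 on ligated arrays, against 0.30, 1.13 and 0.97 on sham arrays (change 3.03 ± 0.70, adjusted p = 0.0484). IER3 changed by 1.35 ± 0.29 (adjusted p = 0.0395). IER3 kept its call in 1 of the 6 fits that leave out 1 array and DUSP1 in 2, with adjusted p up to 0.143 and 0.142. The part of dissociation in the cytokine results was not tested.

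Blood and vessel lining were also read. Of 8 tested neutrophil markers 0 passed, with a median change of 0.27 and summed signals of 2.95 to 7.69 on ligated arrays against 1.75 to 4.22 on sham arrays. S100A9, a calcium-binding protein abundant in neutrophils, came nearest with a change of 1.80 ± 0.56 (SE, adjusted p = 0.101). Of 10 lymphocyte markers 0 passed, with a median of -0.67 and sums of 1.23 to 6.95 against 0.94 to 10.2. Of 7 endothelial markers 0 passed, with a median of 0.13 and sums of 57.4 to 146 against 54.0 to 110.

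Globin and other erythroid transcripts were low on ligated arrays 1 and 2 and high on ligated 3. Of 3 tested erythroid markers 0 passed, with a median of -1.88, and their sums were 28.5, 31.4 and 668 on ligated arrays 1, 2 and 3, against 189, 389 and 372 on sham arrays 1, 2 and 3. The 8 cytokine genes read higher on ligated 1, 2 and 3 alike than on every sham array, which is the separation already given. Erythroid markers do not measure leukocytes, and the part of blood in the cytokine results was not tested. Without both ligated 3 and sham 1, a fit chosen after seeing that these arrays stood apart, 7 of the 8 genes passed, all but TNF. In that fit 12.9% of all tested genes were higher past the threshold, against 6.26% with all 6 arrays.

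**Figure D4:**
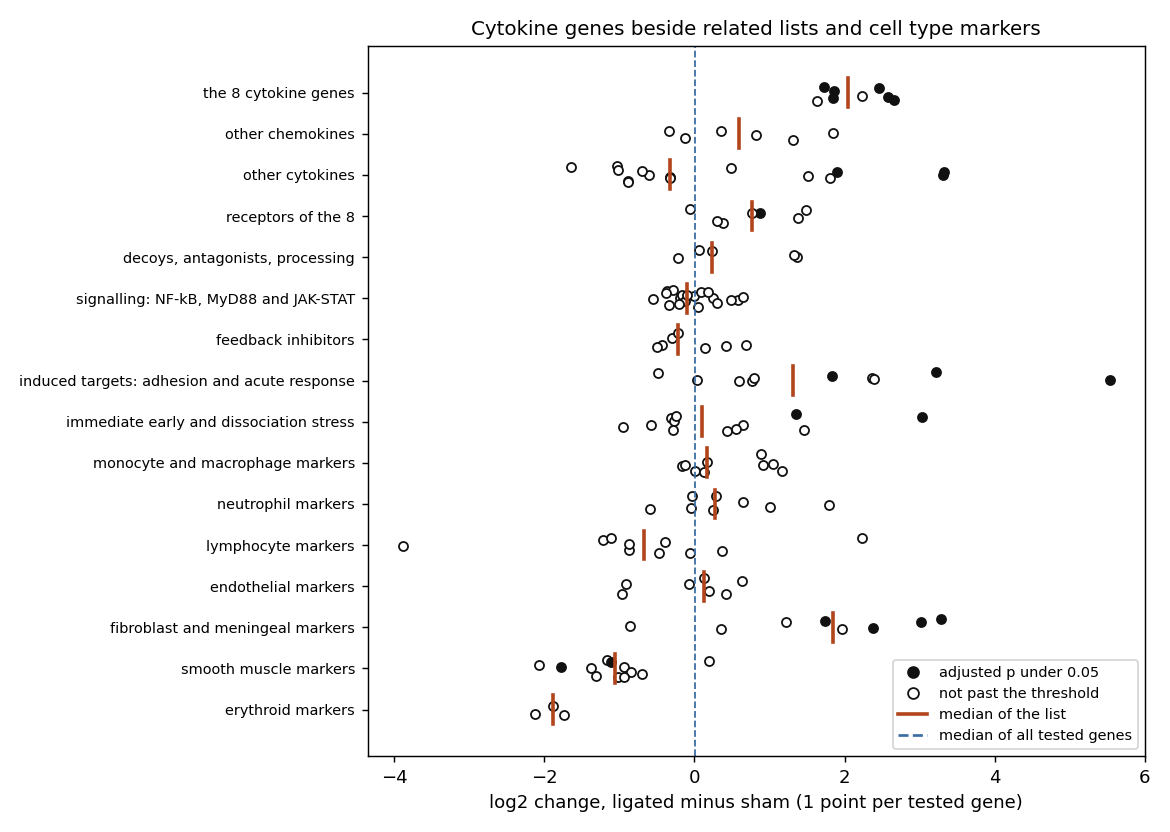
Log2 change (horizontal axis, ligated minus sham) of each tested gene, 1 point per gene, in rows for the 8 cytokine genes and 15 lists. Filled points passed an adjusted p of 0.05, orange lines are list medians and the dashed line is the median of all 7347 tested genes. The 8 cytokine genes lie to the right, with a median of 2.04, next to fibroblast markers at 1.85, while smooth muscle markers lie left at -1.06.

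CXCL8, LIF and IL18 passed in 18 of 19 alternative ways of fitting or processing the data, all but normexp with every spot kept. IL1A passed in 14 of 19, IL1B in 13, IL6 in 11, TNF in 6 and CCL2 in 4. All these changes stayed above 0. When sham 2 and sham 3 were averaged into 1 sample, because of their closeness, 3 of 8 genes passed (CXCL8, IL18 and LIF), and 2.07% of all tested genes were then higher past the threshold.

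**Figure D5:**
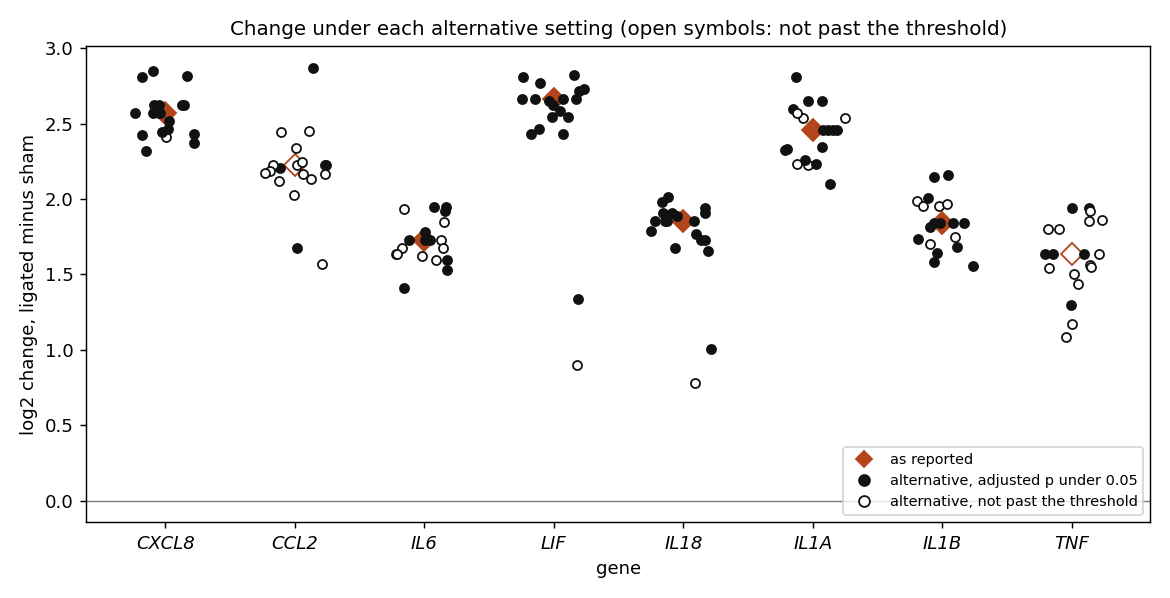
Log2 change (vertical axis, ligated minus sham) of the brightest probe of each gene as reported (orange diamonds) and under 19 alternatives (circles, spread sideways for sight only). Open symbols did not pass an adjusted p of 0.05. Every symbol lies above 0, the lowest for LIF and IL18 are 0.90 and 0.78 with normexp, and most CCL2 and TNF symbols are open.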

How the data were processed

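Agilent Feature Extraction 10.7 made the scanner output, per the submitters' processing notes. Its processed signal is, per the file headers, an intensity already background-subtracted and detrended, and the other columns used are spot flags (unit other). A deposited table in log2, whose making the sources used here do not give, served as an alternative. Outlier spots were left out (2 to 19 per array, 0 of them on the 36 cytokine probes), repeated spots were averaged, and each array's 75th percentile of log2 processed signal was subtracted. Probes well above background on at least 3 of 6 arrays were tested (27410 of 43603) with limma 3.58.1 in R 4.3.3 and Benjamini-Hochberg adjustment, two-sided. The number of arrays limits precision. Of all probes, 22111 had 1 symbol from the files and the RefSeq table of mOryCun1.1 (names only), 13 several and 21479 none. The members, the 15 lists and the tests were chosen with earlier results of these data known. Named were every member probe, direct receptors, and up to 4 passing genes per list with the smallest p (otherwise up to 2). Marker and pathway genes named beyond these (ACTA2, DPT, SLC22A6, DCN, PTGDS, CD14, PTPRC, MRC1, MS4A1, S100A8, CASP1, VCAM1 and FOS) were chosen after their values were seen. Scripts were tested on simulated data. Alternatives were other background corrections, normalizations, filters, variance models, weights, blocks and left-out arrays.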

Additional observations from a re-analysis of the deposited data

How the results depend on the processing

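Over 19 alternatives for each of the 8 cytokine genes, all 152 changes stayed above 0 and 120 kept their side of the threshold, while 22 no longer passed and 10 newly passed. The other 28 probes of these genes all fell on the same side as the brightest probe. The cytokine genes past the threshold numbered 6 as reported, and ran from 3 to 6 over the fits that leave out 1 array. Their probes past the threshold numbered 27 as reported, and ran from 15 to 27. All probes past the threshold numbered 2290, and ran from 552 without sham 3 to 2269 without sham 1. With normexp on all spots 0 of 27410 probes, 0 cytokine probes and 0 cytokine genes passed in limma, and 645 probes had an unadjusted p under 0.05. Leaving out spots of very high local background before the same normexp gave 2948 probes and 6 cytokine genes, so the loss came with those spots. All probes numbered 1524 with no filter on dim probes (43603 tested), 5980 with array weights, 595 with sham 2 and sham 3 averaged, and 5893 without both sham 1 and ligated 3, an alternative chosen after seeing the data; the cause was not tested. With sham 2 and sham 3 averaged, 3 cytokine genes and 16 of their probes passed. Scan day as a block gave 552 probes, 3 cytokine genes and 15 cytokine probes, which is the same fit as leaving out sham 3, the only array of its scan day. The split of higher against lower calls was 1564 to 726 as reported, 1149 to 1052 with median centring, and 1632 to 1316 with normexp without spots of very high local background. The median of all tested probes was 0.01 as reported, -0.19 with median centring and 0.21 with normexp. Of 570 counts over the related lists, 472 stayed within 1.5 times and 98 did not.

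The labels do not say whether replicate numbers pair the arrays. Deviations from the group means correlated at 0.43, -0.57 and 0.58 for numbers 1, 2 and 3. These values cannot settle pairing, because deviations of 3 arrays from their own mean depend on each other. With the replicate number as a block, 1295 probes, 6 cytokine genes and 27 cytokine probes passed, with TNF in (adjusted p = 0.0368) and IL6 out (adjusted p = 0.0573). Where 2 arrays remain in a group, its spread rests on 1 degree of freedom and on the moderation over all probes.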
